A study of Mus musculus with 12 samples.

Results

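The oligodendrocyte lineage genes described here are a list of 36 symbols running from precursor cells to mature myelin, and 35 of them have a row among the 56791 gene names of the deposited table. They were picked by name, and 1 symbol of the list, Itpr1l2, matched no name. Earlier results of these data were known when the list was chosen, so counts of its members lend no independent support. They were read in astrocytes sorted from the hippocampus, where they mark another cell type than the one the sort was for. Adult naive male mice gave the tissue. Cells were sorted with an antibody against ACSA-2, an epitope of the sodium pump subunit encoded by Atp1b2. Tnfrsf1b, the gene for TNFR2, was floxed in both genotypes. The samples labelled cKO (A4, A9 and A10) also carried GfapcreERT2, a tamoxifen-dependent Cre recombinase driven by the Gfap promoter, and those labelled Ctrl (A1, A2 and A8) did not, so effects of the recombinase and of the deletion cannot be told apart. The Gfap promoter is also active in neural stem cells. Each A number has an S1 and an S2 library, which were averaged, giving 3 units per genotype. The labels do not say whether an A number is a single mouse, so p-values measure the spread between these units.

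Oligodendrocytes arise from precursor cells that carry PDGFRA and the proteoglycan NG2. Precursors commit, pass through a premyelinating state and then switch on the myelin programme, in which the transcription factors Sox10 and Myrf drive genes for myelin proteins and for the enzymes that make myelin lipids. Astrocytes do not make myelin, so these transcripts in an astrocyte sort are usually read as RNA from oligodendrocytes sorted or attached along with the astrocytes. Olig2 is an exception, since a part of the astrocyte population also expresses it.

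The genes of myelinating oligodendrocytes had lower values in the libraries labelled cKO. On the log2 scale described below, the 2 precursor genes had the smallest median difference of the stage groups. Of the 9 myelin protein genes, the median member stood at 29.6% of its Ctrl level, and the 2 factors of the myelination switch at 21.7% and 26.7%. The precursor gene Cspg4 stood at 74.0%, and Pdgfra, too low to be tested, at 71.5%. Those 2 values rest in part on A10: without it Cspg4 stood at 57.9%, Pdgfra at 27.1% and the median myelin protein gene at 19.8%. By such percentages the precursor genes did not have the smallest difference of the stage groups once A10 was left out. The lineage factor Olig2, present from the precursor onwards, stood at 91.1%, and at 89.0% without A10. No single gene passed the test. Of the 34 members tested, 0 had a limma adjusted p under 0.05, as did 0% of the 17540 genes tested; the smallest member value was 0.320. At an unadjusted p under 0.05, 30 of the 34 were lower and 0 higher in cKO, where the background was 4.71% of all tested genes lower and 2.98% higher. All 3 cKO units lay below all 3 Ctrl units in 28 of the 35 members, against 7.22% of tested genes, and above them in 0, against 5.76%. Because these are bulk libraries, fewer oligodendrocytes and less RNA per oligodendrocyte cannot be told apart.

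Members took up 0.842% of the assigned reads in A1, 0.902% in A2 and 0.490% in A8. In the units labelled cKO the share was 0.211% in A4, 0.255% in A9 and 0.420% in A10. The groups did not overlap, but A8 lay nearer to A10 than to the other Ctrl units. The 13 astrocyte markers took 3.45% to 4.12% of the reads in Ctrl and 3.97% to 4.75% in cKO, ranges that overlap. Reads came to 17311872 to 35323323 per library, recovered from the steps between low values, and 34 of the 35 members had at least 3 reads in every library.

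**Figure D1:**
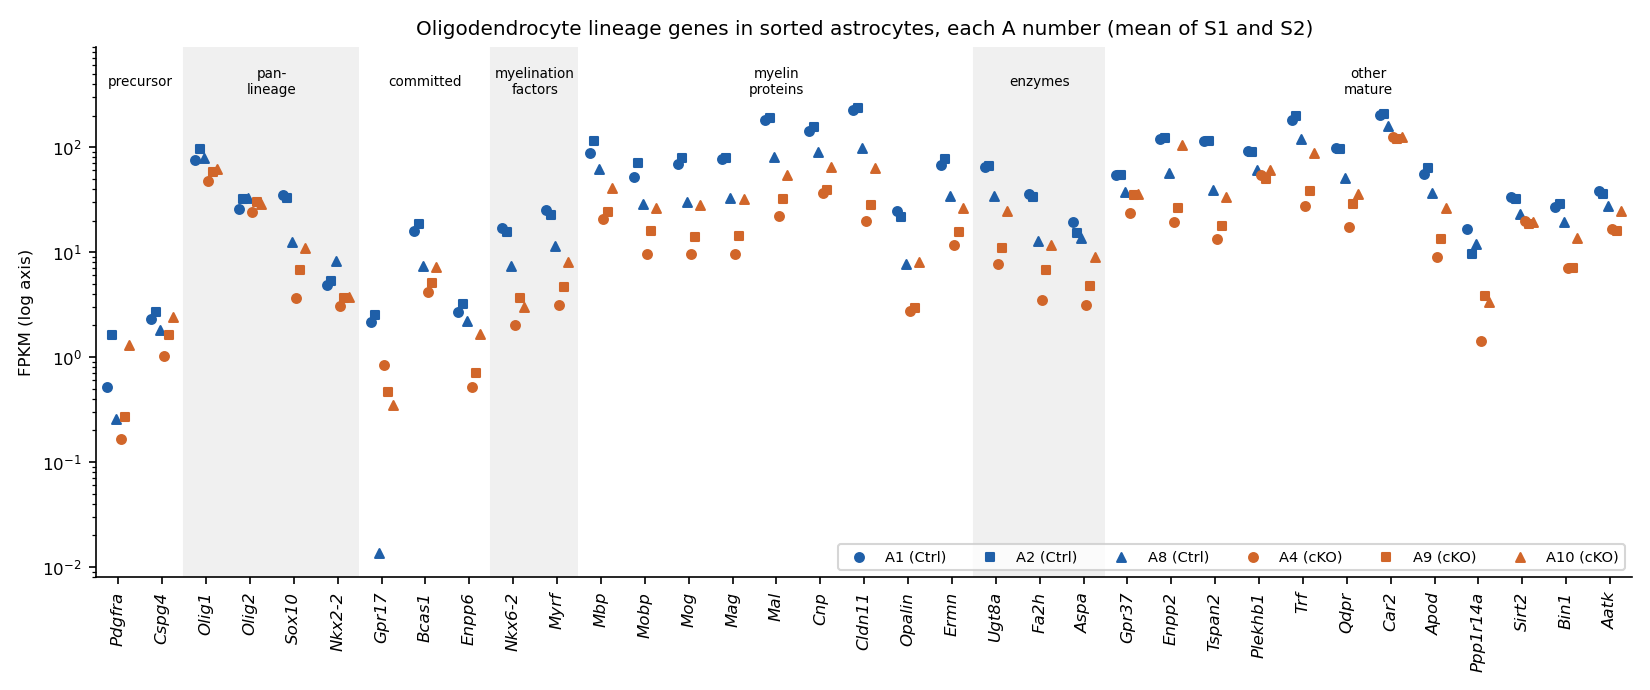
FPKM (fragments per kilobase of gene length, scaled by the assigned total) of the 35 members on a log axis, in order from precursor to mature; each symbol is 1 A number (mean of its S1 and S2 libraries), blue for Ctrl and orange for cKO. A1 and A2 lie above all other units in 29 members, and A4, A9 and A10 below A1, A2 and A8 in 28.

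The targeted gene gave no check of the labels. Tnfrsf1b was listed at 0 in 9 of the 12 libraries and had at most 22 reads in any. Its highest unit value, 0.141 FPKM, was in A4, although that unit is labelled cKO. The 8 microglial markers also summed highest in A4, at 34.4 FPKM, and the part of microglia in the Tnfrsf1b value was not tested. A4 had the lowest value in 30 of the 35 members as well. All directions below are therefore between labels. With A4 left out, all 35 members still had a log2 fold change below 0, and the median member was at -1.25, against -1.50 with all units.

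Fold changes are differences of mean log2(FPKM + 1) between the genotypes, cKO minus Ctrl, which understate differences of genes near 1 FPKM. Over all tested genes their median was -0.01, and 3.23% lay below -1, against 23 of the 35 members. By stage, the median was -0.25 for the 2 precursor genes, -0.61 for the 4 transcription factors shared along the lineage and -0.95 for the 3 genes of committed, premyelinating cells. It was -1.78 for the 2 factors of the myelination switch, -1.75 for the 9 myelin protein genes, -1.78 for the 3 genes of lipid and aspartate enzymes and -1.34 for the 12 other mature genes. The committed genes are low, and their place depended on the scale: with a pseudocount of 0.1 their median was -1.25, and the median committed gene stood at 35.6% of Ctrl in FPKM, close to the 31.7% of the 24 mature genes.

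**Figure D2:**
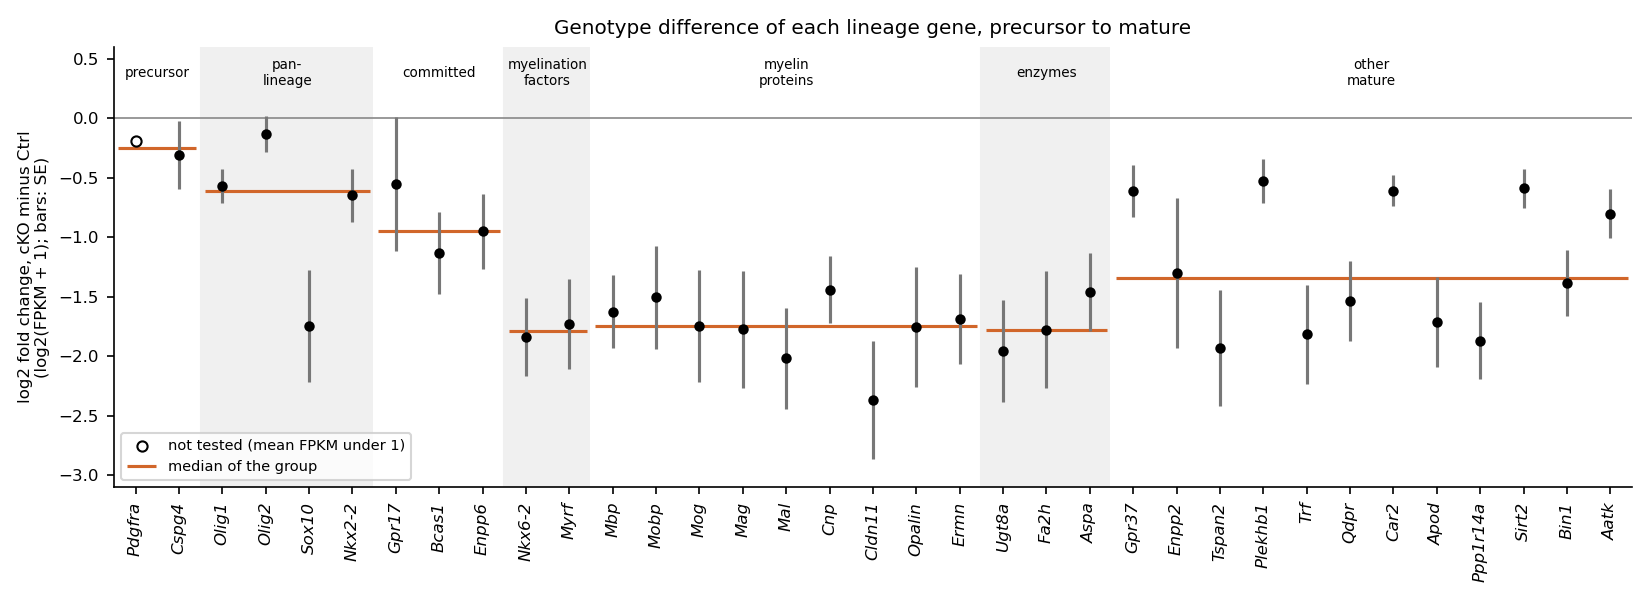
Log2 fold change (cKO minus Ctrl, log2(FPKM + 1) scale) of each member with its standard error; orange lines are the medians of the stage groups, and the open circle is Pdgfra, which was too low to be tested. All 35 points lie below 0, from -0.13 for Olig2 to -2.37 for Cldn11.

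Precursor genes were near the lower limit of the data. Pdgfra, the receptor for PDGF-A that keeps precursors dividing, measured 0.523, 1.63 and 0.258 FPKM in Ctrl A1, A2 and A8. It measured 0.165, 0.271 and 1.29 FPKM in cKO A4, A9 and A10. A2 and A10 were high and the groups overlapped. The mean FPKM over the 12 libraries was 0.690, under the minimum of 1 for testing, and its difference changed sign without A2, from -0.19 to 0.12. Cspg4, which encodes the NG2 proteoglycan and is also made by pericytes, measured 2.30, 2.70 and 1.82 FPKM in Ctrl (A1, A2, A8). In cKO (A4, A9, A10) it measured 1.02, 1.61 and 2.42 FPKM. Its log2 fold change was -0.31 (SE 0.29, adjusted p = 0.883, limma), with A10 above A1. Mural cell markers, which pericytes share, summed to 66.5 to 111 FPKM in Ctrl and 92.5 to 141 FPKM in cKO over 6 of 6 detected genes; their part in the Cspg4 values was not tested.

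The 4 factors expressed along the lineage did not move alike. Olig2 (ENSMUSG00000039830), needed to specify the lineage, measured 25.7, 32.4 and 32.9 FPKM in A1, A2 and A8. In A4, A9 and A10 it measured 23.9, 30.1 and 28.9 FPKM. Every cKO unit but A4 lay within the Ctrl range, and the log2 fold change was -0.13 (SE 0.15, adjusted p = 0.915, limma). Olig1, its paralog with a later role in maturation, measured 75.005, 95.1 and 79.5 FPKM in Ctrl against 47.9, 57.6 and 61.9 FPKM in cKO. The Olig1 groups did not overlap, with a log2 fold change of -0.57 (SE 0.15, adjusted p = 0.391, limma). Nkx2-2, a homeodomain factor of committed precursors, was highest in A8, at 8.32 FPKM, and its cKO units (3.09 to 3.76 FPKM) lay below the lowest Ctrl unit, at 4.89 FPKM.

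Sox10 (ENSMUSG00000033006), the factor that activates many myelin genes, had a log2 fold change equal to the median of the myelin protein genes. It measured 35.2, 32.6 and 12.6 FPKM in A1, A2 and A8. In A4, A9 and A10 it measured 3.69, 6.82 and 11.01 FPKM. A10 came close to A8 without overlapping it, and the difference had an SE of 0.47 around that value (adjusted p = 0.419, limma). Per unit of length, Sox10 was 1.37, 1.01 and 0.383 times Olig2 in the Ctrl units and 0.155, 0.226 and 0.380 times in the cKO units. On that ratio A8 and A10 were nearly equal, whereas A1 and A2 lay above all other units.

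Committed cells are marked by Gpr17, Bcas1 and Enpp6. Bcas1, an intracellular protein of cells that have begun to myelinate, measured 15.7, 18.3 and 7.39 FPKM in A1, A2 and A8 and 4.20, 5.05 and 7.28 FPKM in A4, A9 and A10. Enpp6, a choline phosphodiesterase of newly formed oligodendrocytes, measured 2.71, 3.20 and 2.21 FPKM in the same Ctrl units and 0.515, 0.711 and 1.66 FPKM in the cKO units. Neither gene's groups overlapped, and the log2 fold changes were -1.13 (SE 0.35) and -0.95 (SE 0.31), with limma's adjusted p at 0.474 and 0.534. Gpr17, a receptor of the premyelinating state, set A8 apart from every other unit. It measured 2.16 and 2.54 FPKM in A1 and A2, 0.0135 FPKM in A8, and 0.834, 0.464 and 0.353 FPKM in A4, A9 and A10. In both A8 libraries Gpr17 lay under the floor of 3 reads, so it was not detectable there. Its cKO units lay between A8 and the other Ctrl units (log2 fold change -0.55, SE 0.56, adjusted p = 0.899, limma).

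Both factors of the myelination switch separated the groups. Myrf, the membrane-bound factor without which myelin genes are not expressed, measured 25.4, 22.6 and 11.3 FPKM in A1, A2 and A8. It measured 3.14, 4.65 and 8.05 FPKM in A4, A9 and A10, a log2 fold change of -1.73 (SE 0.38, adjusted p = 0.333, limma). Nkx6-2, a homeodomain factor of myelinating cells, measured 16.8, 15.6 and 7.42 FPKM in Ctrl against 2.01, 3.66 and 2.98 FPKM in cKO. Nkx6-2 was 1 of the 3 members with the smallest unadjusted p (0.000833, log2 fold change -1.84, SE 0.33, adjusted p = 0.320, limma), and its cKO units stayed under 4 FPKM.

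Among the 9 myelin protein genes, Ctrl means were 2.74 to 5.03 times the cKO means. Cldn11 (ENSMUSG00000037625, chromosome 3, start 31204069, end 31218473 in the deposited table), the claudin of the radial tight junctions of myelin, had the largest log2 fold change of all members. It measured 225, 238 and 98.2 FPKM in A1, A2 and A8. It measured 19.8, 27.8 and 63.9 FPKM in A4, A9 and A10. The groups did not overlap (log2 fold change -2.37, SE 0.49, adjusted p = 0.333, limma). Set against Aqp4, the water channel of astrocyte endfeet, Cldn11 was 1.31, 1.04 and 0.442 times as high in the Ctrl units and 0.0908, 0.104 and 0.274 times in the cKO units. In A1 and A2, then, this myelin transcript was above Aqp4 per unit of length. Other astrocyte markers lay on both sides of Cldn11 in A1 and A2. Slc1a2, the most abundant of them, measured 1498 and 1602 FPKM there, and Gfap 61.4 and 112 FPKM.

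Mal, a lipid raft protein of compact myelin, measured 179.9, 190.4 and 80.4 FPKM in A1, A2 and A8 and 21.8, 32.4 and 54.6 FPKM in A4, A9 and A10 (log2 fold change -2.02, SE 0.42, adjusted p = 0.333, limma). Mbp, the myelin basic protein that holds the cytoplasmic faces of the membrane together, measured 88.9, 115 and 62.2 FPKM in Ctrl and 20.5, 23.98 and 40.8 FPKM in cKO. Its log2 fold change was -1.63 (SE 0.31, unadjusted p = 0.00121, adjusted p = 0.320, limma). Mal and Mbp kept the same order of units, with A4 lowest and A2 highest. Mag, the adhesion protein facing the axon, came nearest to an overlap among the 8 myelin protein genes without one, at 32.9 FPKM in A8 and 32.1 FPKM in A10. Its single libraries did overlap, with 32.3 FPKM in A8 S2 and 32.6 FPKM in A10 S2. Opalin, a glycoprotein of the myelin paranodes, was the only 1 of the 9 whose units overlapped, at 7.64 FPKM in A8 and 7.99 FPKM in A10. The other members of the group were Cnp (-1.44), Mobp (-1.50), Ermn (-1.69) and Mog (-1.75), by log2 fold change.

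To let the start regions of such genes be read beside their values, the bases before the transcription start are printed for 4 members, from RefSeq on GRCm38.p6, 5′ to 3′ on the gene's strand. Olig2 (chr16:91225300-91225549, plus strand) had the smallest difference and Cldn11 (chr3:31149670-31149919, plus strand) the largest. Cnp (chr11:100574689-100574938, plus strand), the phosphodiesterase of noncompact myelin, and Mag (chr7:30914864-30915113, minus strand, the first of 3 starts in the table) were added after the matches were seen, because both hold a Sox and a Myrf core. Capitals mark matches on either strand to CAGCTG (an E-box of the kind Olig factors bind), to ACAAAG or ACAATG (cores bound by Sox factors) and to CTGGCAC or CTGGTAC (cores bound by Myrf).
Olig2: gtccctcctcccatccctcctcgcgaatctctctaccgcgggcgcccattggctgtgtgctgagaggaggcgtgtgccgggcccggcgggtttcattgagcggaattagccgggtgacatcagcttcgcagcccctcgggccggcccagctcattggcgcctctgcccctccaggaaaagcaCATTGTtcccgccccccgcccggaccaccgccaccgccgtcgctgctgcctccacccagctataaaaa
Cldn11: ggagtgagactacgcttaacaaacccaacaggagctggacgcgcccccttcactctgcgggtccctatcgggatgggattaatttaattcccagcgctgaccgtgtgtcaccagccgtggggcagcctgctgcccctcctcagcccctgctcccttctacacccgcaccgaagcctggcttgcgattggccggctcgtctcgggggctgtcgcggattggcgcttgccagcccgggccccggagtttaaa
Cnp: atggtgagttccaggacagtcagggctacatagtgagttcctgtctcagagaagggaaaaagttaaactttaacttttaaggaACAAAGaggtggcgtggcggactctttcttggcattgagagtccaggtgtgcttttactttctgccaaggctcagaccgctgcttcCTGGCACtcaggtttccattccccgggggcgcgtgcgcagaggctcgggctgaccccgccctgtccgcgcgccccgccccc
Mag: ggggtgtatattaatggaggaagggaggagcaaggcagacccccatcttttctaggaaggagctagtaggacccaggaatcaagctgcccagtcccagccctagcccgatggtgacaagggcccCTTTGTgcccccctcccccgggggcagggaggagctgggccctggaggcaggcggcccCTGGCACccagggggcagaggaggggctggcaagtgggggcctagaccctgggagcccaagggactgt
Each run is 250 bases. Of these, Cldn11 held no match, Olig2 held 1 Sox core, and Cnp and Mag each held 1 Sox and 1 Myrf core. Of the members, 24 had a promoter of 300 bases in the table, 250 before and 50 after the start. A Sox core was found in 10 of these 24, against 28.6% of the 32817 promoters of that length in the table. A Myrf core was found in 4 (Cnp, Mag, Mog and Opalin), against 7.09%, and the E-box in 3 (Apod, Aspa and Opalin), against 16.3%. Both a Sox and a Myrf core were found in 3 (Cnp, Mag and Opalin), against 2.11%. Cspg4, Enpp6, Nkx6-2, Ugt8a and Plekhb1, chosen by abundance like Olig2 and Cldn11 but not printed, held no match save 1 Sox core in Enpp6. Abundance was ranked within each stage group, among the members with a promoter in the table. The runs of Cnp and Mag, added for their matches, are richer in matches than those chosen by abundance. A match to letters is a description and does not show a bound site.

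The 3 enzymes of myelin chemistry differed by similar amounts. Ugt8a, which makes galactosylceramide, measured 64.2, 65.8 and 34.3 FPKM in A1, A2 and A8. In A4, A9 and A10 it measured 7.70, 10.9 and 24.4 FPKM (log2 fold change -1.96, SE 0.43, adjusted p = 0.333, limma). Fa2h, which hydroxylates the fatty acids of those lipids, measured 35.7, 33.6 and 12.7 FPKM in Ctrl and 3.48, 6.69 and 11.6 FPKM in cKO. Aspa, which splits N-acetylaspartate, differed by -1.46 on the log2 scale (SE 0.33, adjusted p = 0.334, limma). None of the 3 had overlapping units, and A10 was the highest cKO unit in each.

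The 12 other mature genes split into larger and smaller differences. Trf, the iron carrier transferrin, measured 180.3, 198 and 118 FPKM in A1, A2 and A8 and 27.8, 37.98 and 87.4 FPKM in A4, A9 and A10 (log2 fold change -1.81, SE 0.42, adjusted p = 0.344, limma). Car2, a carbonic anhydrase also made by astrocytes and choroid plexus, measured 200.5, 207 and 158 FPKM in Ctrl and 125, 119 and 124 FPKM in cKO. The Car2 groups were separate with little spread in cKO (log2 fold change -0.61, SE 0.13, adjusted p = 0.333, limma). Ppp1r14a, an inhibitor of myosin phosphatase, had the smallest unadjusted p of the members (0.000749). It measured 16.6, 9.54 and 11.8 FPKM in Ctrl and 1.43, 3.85 and 3.33 FPKM in cKO, with A8 inside the Ctrl range, unlike in most members (log2 fold change -1.87, SE 0.33, adjusted p = 0.320, limma). Plekhb1, a membrane-associated adaptor, measured 92.0, 90.7 and 60.7 FPKM in Ctrl and 54.3, 49.9 and 61.1 FPKM in cKO. A10 lay above A8, and the log2 fold change was -0.53 (SE 0.18, adjusted p = 0.569, limma).

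Of the rest, Tspan2 (-1.93), Apod (-1.71), Qdpr (-1.54), Bin1 (-1.39) and Enpp2 (-1.30) had the larger log2 fold changes, and Aatk (-0.80), Gpr37 (-0.61) and Sirt2 (-0.59) the smaller. Of the 12, 9 were listed here as known from other brain cells as well: Enpp2, Qdpr, Car2, Apod, Sirt2, Bin1, Aatk, Trf and Plekhb1. Their median was -1.30, with 5 of 9 below -1. The other 15 mature genes had a median of -1.75, with 14 of 15 below -1, the exception being Gpr37. Absence from the list of 9 does not make a gene particular to oligodendrocytes.

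Enpp2 (ENSMUSG00000022425, chromosome 15, start 54702297, end 54816288 in the deposited table) encodes autotaxin, which is made by mature oligodendrocytes and by the choroid plexus epithelium. It measured 121 FPKM in both A1 and A2 and 57.2 FPKM in A8. In A4 and A9 it measured 19.2 and 26.2 FPKM, and in A10 104.9 FPKM. A10 was thus nearly as high as A1 and A2, and the ratio of Enpp2 to Mag was 3.27 in A10 against 1.54 to 2.02 in the other 5 units. Choroid plexus markers were high in the same unit. Ttr, the transthyretin of choroid plexus epithelium, measured 433 FPKM in A10, 58.4 and 64.5 FPKM in A1 and A2, and 5.65, 2.06 and 0.259 FPKM in A8, A4 and A9. The 5 choroid plexus markers summed to 7.90 to 72.2 FPKM in Ctrl and 1.62 to 452 FPKM in cKO, and Kcne2 was listed at 0 in 4 libraries. Their part in the Enpp2 value was not tested. The log2 fold change of Enpp2 was -1.30 (SE 0.63, adjusted p = 0.715, limma) and -2.03 without A10.

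**Figure D3:**
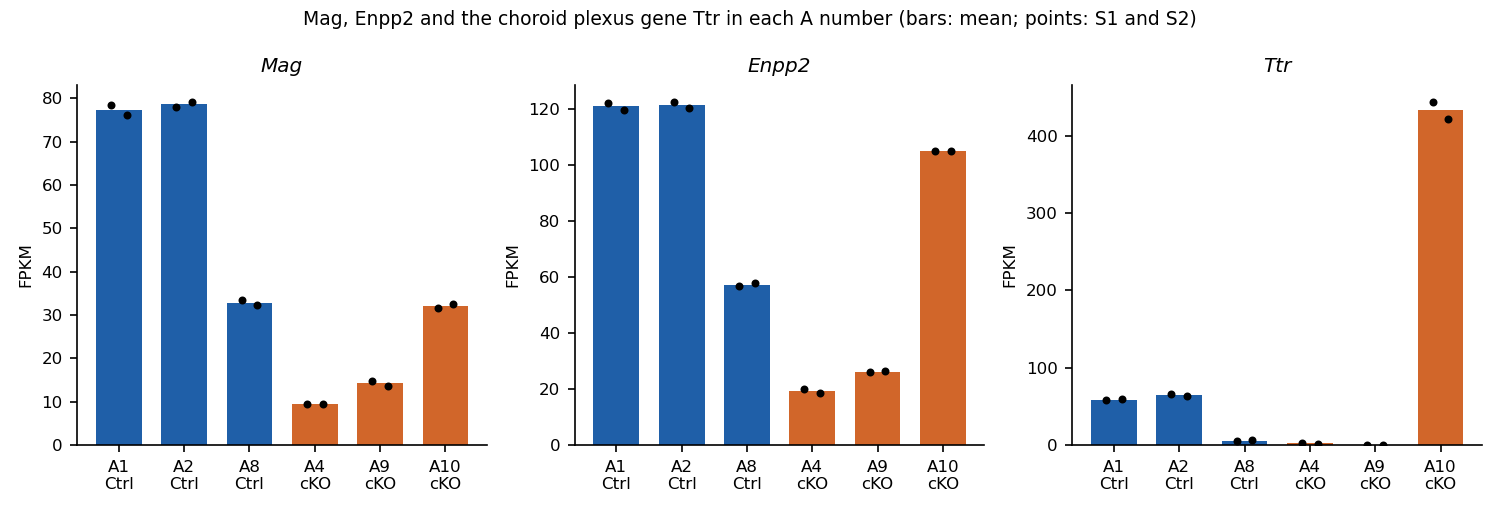
FPKM of Mag, Enpp2 and Ttr in each A number; bars are the mean of the S1 and S2 libraries, which are drawn as points, blue for Ctrl and orange for cKO. A10 is close to A8 for Mag but at 104.9 FPKM for Enpp2, in the unit where Ttr reaches 433 FPKM.

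The stages were then compared within each A number, which depends little on how a library is scaled. The mean log2 level of the 24 mature genes exceeded that of the 6 precursor and lineage-wide genes by 2.60, 2.35 and 1.90 in A1, A2 and A8. The excess was 1.22, 1.27 and 1.67 in A4, A9 and A10. The groups did not overlap, and the values were 2.28 ± 0.36 for Ctrl and 1.39 ± 0.25 for cKO (mean ± SD of 3 units), a difference of -0.89. Myelin protein genes exceeded the precursor genes by 4.49 to 5.27 in Ctrl and by 3.20 to 3.62 in cKO. They exceeded the committed genes by 3.82 to 3.90 in Ctrl and by 2.53 to 3.47 in cKO. Against the 4 lineage-wide factors, the excess was 0.80 in A8 and 0.92 in A10, so there the groups overlapped. The scale understates differences of the precursor genes, which lay near 1 FPKM, and Olig2 and Cspg4 are also made by other cells. With a pseudocount of 0.1, the difference of the mature genes against the 6 precursor and lineage-wide genes was -0.84.

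**Figure D4:**
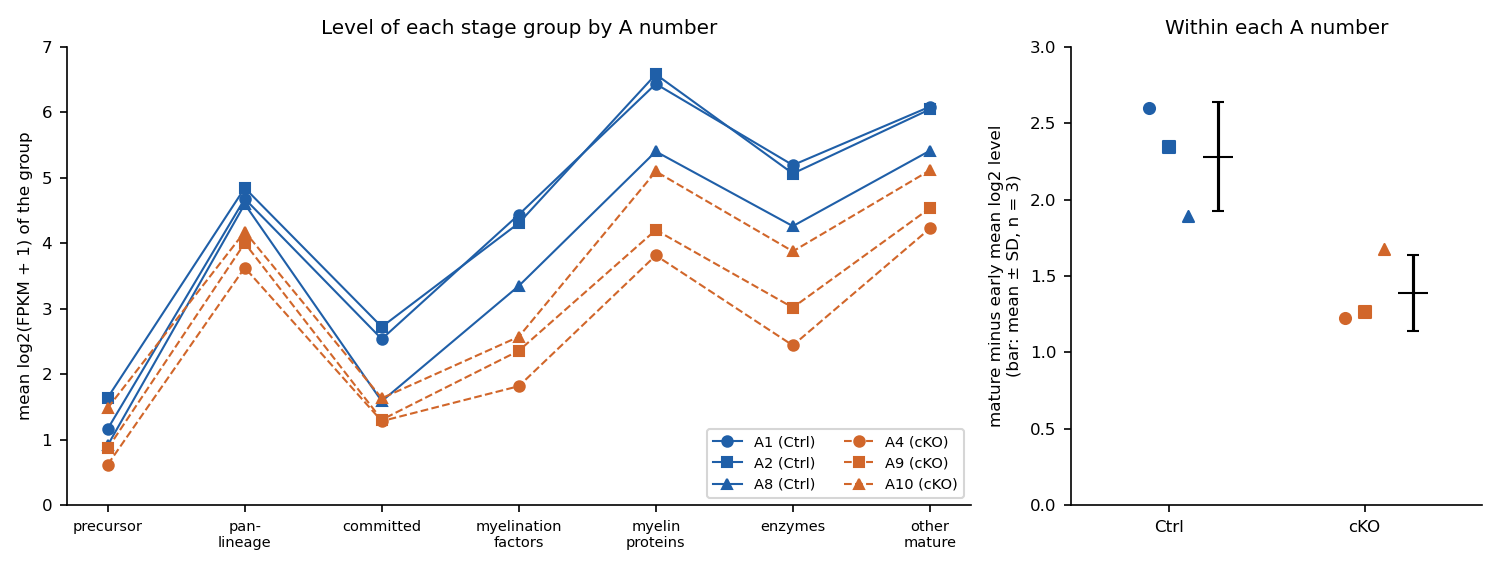
Left, mean log2(FPKM + 1) of each stage group in each A number (solid blue, Ctrl; dashed orange, cKO; the lines join the groups of 1 unit). Right, the mature level minus the level of the 6 precursor and lineage-wide genes, with mean ± SD of 3 units; Ctrl lies between 1.90 and 2.60 and cKO between 1.22 and 1.67.

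The Ctrl units also differed among themselves. In the mature genes, A8 stood at a median of 56.5% of the mean of A1 and A2, from 32.8% for Opalin to 90.3% for Ppp1r14a. A8 was below both in 31 of the 35 members, the exceptions being Olig1, Olig2, Nkx2-2 and Ppp1r14a. Among the cKO units, A10 was highest in 29 members. The full order A4, A9, A10, A8 from the lowest upwards held in 21 members. Without A8, 32 members had separate groups and the median of the myelin protein genes was -2.18. Without A10, 32 did and it was -2.15. The background rose as well: the share of all tested genes with cKO below Ctrl was 19.6% without A8 and 11.9% without A10.

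Other genes of the lineage, from a second list of 49 that was also chosen with earlier results known, were read by stage as well. Of 30 further mature genes, 28 could be tested. Lower cKO values with an unadjusted p under 0.05 were found for 26 of them, against 4.71% of all tested genes. Groups were separate with cKO lower in 23 of the 30, against 7.22%, and the median log2 fold change was -1.35. Cryab, a small heat shock protein, measured 66.3, 106 and 66.6 FPKM in A1, A2 and A8 and 30.2, 35.9 and 51.3 FPKM in A4, A9 and A10. Tmem88b, a membrane protein, measured 71.1, 73.8 and 44.4 FPKM in Ctrl and 11.4, 17.3 and 25.8 FPKM in cKO. Of 10 further precursor genes and 9 further committed genes, 6 each could be tested, and 0 reached an unadjusted p under 0.05. Over all tested genes 4.71% did with cKO lower and 2.98% with cKO higher. The medians were 0.00 and 0.02. Sox8, a relative of Sox10, measured 35.2, 38.5 and 35.8 FPKM in Ctrl and 29.4, 35.6 and 36.5 FPKM in cKO. Xylt1, which starts proteoglycan chains, measured 20.3, 20.1 and 30.7 FPKM in Ctrl and 24.7, 33.3 and 34.1 FPKM in cKO. Several of these precursor and committed genes are expressed by astrocytes too. Groups were separate, with cKO lower, in 1 of the 10 precursor genes (Cacng4, at 54.1% of Ctrl) and 1 of the 9 committed genes (Zfp488, at 16.8% and under the minimum for testing), and with cKO higher in 1 (Fyn). Counts this small are near the shares over all tested genes, 7.22% with cKO lower and 5.76% with cKO higher. Other genes of low level had low cKO means with overlapping groups, among them Neu4 at 15.5%, Mycl at 28.3% and Lims2 at 29.0% of Ctrl. These 6 genes were named after their values were seen. No gene of the second list had a limma adjusted p under 0.05.

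Markers of the remaining cell types were read beside the members. Ependymal markers, 5 of 5 detected, summed to 59.7 to 229 FPKM in Ctrl and 50.8 to 149 FPKM in cKO, and endothelial markers, 6 of 6, to 4.78 to 44.8 and 4.17 to 31.9 FPKM. Neuronal markers, 8 of 8 but with Gad2 listed at 0 in 4 libraries, summed to 6.05 to 10.02 and 3.28 to 6.69 FPKM. These ranges overlapped. The 8 microglial markers did not overlap, at 13.5 to 19.1 FPKM in Ctrl and 20.6 to 34.4 FPKM in cKO, although Tmem119 was listed at 0 in 8 libraries. Of the Schwann cell markers, for the myelin of peripheral nerve, none averaged 1 FPKM, and Pmp2 was listed at 0 in all 12 libraries. The astrocyte markers summed to 4050 to 5030 FPKM in Ctrl and 4885 to 5577 FPKM in cKO. Of these 13, only S100b had a log2 fold change below 0, against 50.8% of tested genes, and their median was 0.21. All 3 cKO units lay above all 3 Ctrl units in 2 of them (Aldh1l1 and Gja1), against 5.76% of tested genes. At an unadjusted p under 0.05 (limma), 0 of the 13 differed. The part of these cell types in the members' difference was not tested.

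The libraries of 1 A number gave nearly the same values for these genes. In a fit blocked on the A number, 0 of the 34 tested members differed between S2 and S1 at a limma adjusted p under 0.05 (background 1.13% higher and 0.257% lower in S2). The smallest member value was 0.190, and the largest S2 minus S1 difference was 0.19 on the log2 scale. When all 12 libraries entered the genotype fit and the A number was a random effect, 14 members had a limma adjusted p under 0.05, all lower, against a background of 0.564% of genes lower and 0.0741% higher. These were Myrf, Mbp, Mal, Cnp, Cldn11, Ermn, Ugt8a, Aspa, Tspan2, Trf, Qdpr, Car2, Apod and Bin1, with Mbp and Cnp lowest, each at 0.0195. That model assumes 1 correlation within an A number, 0.915, for all genes. It also counts 12 libraries in place of 6 units, so its p-values do not measure the spread between units alone.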

How the data were processed

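RNA from ACSA-2 sorted hippocampal cells was made into SMART-Seq V4 libraries and read as pairs of 125 bases, per the labels' protocols. The authors deposited 1 table of FPKM values for 56941 genes in 12 libraries, with gene lengths. FastQC, STAR, featureCounts and DESeq2 and the builds mm10 and GRCm38 are named, without versions or roles, per the submitters' processing notes; the annotation is not given in the sources used here. Only 1 of 35 members had a gene boundary within 1000 bases of RefSeq GRCm38.p6, so coordinates are given as in the table, whose build is uncertain, except those of promoters. FPKM times length in kilobases summed to 1000000 per library. Depth was recovered from steps between low values; 85.1% to 89.1% of values under 300 reads came out whole within 0.02 of a read, and reads without molecular identifiers make floors of 3 reads cover counting error only.

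Rows sharing a symbol (147 symbols) were summed. S1 and S2 were averaged on the log2(FPKM + 1) scale for tests and as FPKM for printed levels. Genes averaging 1 FPKM or more over the libraries were tested with limma 3.58.1 in R 4.3.3 (lmFit, eBayes with trend, two-sided, Benjamini-Hochberg over all 17540 genes, threshold 0.05), tested on simulated data. With 3 units per genotype precision is limited. Members, stage groups and lists were chosen with earlier results of these data known, so they lend no independent support. Unit values are given for the 2 most abundant members of each group, the extremes of fold change and the smallest p. Sox10, Gpr17, Nkx2-2, Mag, Opalin and Enpp2 were added after their values were seen. Of the second list, the most abundant genes are named, and 1 such gene is not reported here. Alternatives were other pseudocounts, filters, scalings and eBayes settings, S1 or S2 alone, each A number left out, and models of 12 libraries.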

Additional observations from a re-analysis of the deposited data

How the results depend on the processing

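The counts of 0 genes and 0 members with a limma adjusted p under 0.05 held under other pseudocounts, filters, scalings, eBayes settings, the log2 of the mean FPKM and S1 or S2 alone, where 28 to 30 members had an unadjusted p under 0.05 and lower values. In those fits 2.99% to 6.3% of all tested genes had such values. Over the fits that each left out an A number, the count of genes was 0 to 1 (1 without A1, not a member), 25 to 31 members had an unadjusted p under 0.05 and lower values (25 without A4, 31 without A8 or A10) where 2.9% to 8.52% of tested genes did, and the smallest member adjusted p over all fits of units ran from 0.107 to 0.787. In the fit of 12 libraries with a random effect per A number, 112 genes and 14 members passed. With the replicate block added, 80 genes and 13 members passed (replicate numbers tell S1 from S2, so there is no pairing across genotypes). Both fits count 12 libraries in place of 6 units, so their p-values do not measure the spread between units alone, and their counts are not comparable with those of the fits of units. The 28 members with separate groups became 26 to 32, where 4.78% to 19.6% of tested genes had all cKO units below Ctrl. Of the stage medians, that of the committed genes moved by more than the SD between units, to -1.25 with a pseudocount of 0.1, by the construction of that scale, and the other medians and alternatives by less. Of 700 member fold changes under alternatives, 1 reversed: Pdgfra, -0.50 with a pseudocount of 0.1, -0.50 without A10 and 0.12 without A2. The S2 against S1 count of 243 genes became 152 without a filter, 142 without trend, 22 without the block and 152 to 180 with an A number left out, with 0 members in each.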
